A study of Mus musculus with 56 samples.

Results

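Translation factors are the proteins that load an mRNA onto the ribosome, choose the start codon and carry the ribosome along the message, and 66 of the 30199 genes on the array carry a name beginning with Eif or Eef. Every such gene was taken without looking at its level, except Eif2ak2, which was kept out. Each gene was represented by the brightest of its non-control probes, and 63 of the 66 passed a filter that required a probe to be uniform and above background on most arrays, among 18766 genes that passed it. The 3 members that did not pass were Eif2c3, Eif4e1b and Eif5b, and no change is given for them. Eif2c1 to Eif2c4 are old names of the Argonaute genes (Ago1 to Ago4), which bind small RNAs and are not initiation factors. They are described apart, but they count among the 66 members and, except Eif2c3, among the 63.

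The study asked how the blood of mice responds to strontium-90 (90Sr), a beta emitter that settles in bone and irradiates the marrow from inside. C57BL/6 mice of 10 to 12 weeks received 200 kBq of 85/90SrCl2 in the tail vein, with 85Sr as a tracer for whole-body counting, and the control mice received the saline vehicle. Whole blood was taken by cardiac puncture into a stabilizing solution at days 4, 7 and 9 and again at days 25 and 30, and globin transcripts were reduced before labeling. One array was hybridized per mouse, 56 in all, with 4 control and 4 90Sr mice at day 4 and 6 of each at every later day, each day with its own controls. The spread between mice is that of separate animals, and because whole blood was taken, fewer cells of a type and less RNA per cell cannot be told apart in any value below.

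Initiation begins when eIF2 brings the initiator tRNA to the small ribosomal subunit, held by eIF3 with eIF1 and eIF1A, while the eIF4 proteins bind the mRNA cap and unwind the leader. After the start codon is found, eIF5 lets eIF2 release its bound nucleotide, and eIF2B recharges eIF2 for another round. Stress kinases phosphorylate eIF2 and so block eIF2B, and the 4E-binding proteins, under control of mTORC1, hold the cap-binding protein eIF4E. In elongation eEF1 delivers the tRNAs and eEF2 moves the ribosome. Red blood cell precursors depend on one of the eIF2 kinases, the heme-regulated inhibitor encoded by Eif2ak1, to match globin synthesis to heme.

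The promoters of these genes share letters, which are shown first so that members that changed in different ways can be set side by side. RefSeq windows of 250 bases before and 50 bases after the start of transcription (GRCm38.p6) were found for 52 members, and a gene with more than 1 window was counted once if any of them held the word. The ETS word CCGGAAG, read on both strands, lay in a window of 18 of the 52 members (34.6%) and of 9.93% of 27025 genes. The E-box CACGTG was found for 12 of the 52 members (23.1%) and 8.09% of those genes, and the cyclic AMP response element TGACGTCA for 1 (1.92%) and 2.03%. Of the 9 members with a window that were called lower at all 5 days, 3 held the ETS word (33.3%), and so did 9 of the 27 (33.3%) that were never called lower. For the E-box the shares were 22.2% (2 of 9) and 25.9% (7 of 27). A match describes letters and does not mark a binding site. The following stretches have the word in capitals (CTTCCGG is CCGGAAG on the opposite strand), are written along the strand of the gene, and come from members called lower at all 5 days.
Eif2b2 (chr12:85219486-85219514, + strand, 16 bases after the start): cctctctcggcCCGGAAGtgaaacagtgc
Eif2b4 (chr5:31193121-31193149, - strand, 1 base after the start): cccagtgcacgCCGGAAGttgtagtccgc
Eif4enif1 (chr11:3203003-3203031, + strand, 19 bases after the start): tccctgcccttCTTCCGGaggagcctcta
Eif4a1 (chr11:69672596-69672623, - strand, 189 bases before the start): gatcgcctccgCACGTGtaaaggtgctg
Eif4h (chr5:134639489-134639516, - strand, 96 bases before the start): ggccgccgcacCACGTGggccgcagagc

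The same words, again in capitals, stood in the windows of members that were never called lower, and these stretches are set beside the first set for that reason.
Eef1b2 (chr1:63176821-63176849, + strand, 1 base after the start): ctgcagttccgCCGGAAGtagccgaggcc
Eif5a (chr11:69920668-69920696, - strand, 55 bases before the start): cagccgtagcaCCGGAAGtgttccccatt
Eif2ak1 (chr5:143817797-143817825, + strand, 16 bases after the start): ctcttgtgttaCTTCCGGcttggggggag
Eef2 (chr10:81176577-81176604, + strand, 43 bases before the start): cccggcgccgtCACGTGacgcacccaac

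Levels below are log2 processed signals minus the median of the array, and changes are differences of those levels, 90Sr minus control of the same day. A gene was called when limma gave an unadjusted p under 0.001 and the change was at least 2-fold, the threshold of the study's methods, and adjusted p-values are limma's with Benjamini-Hochberg adjustment over all 18766 genes. Of 43020 non-control spots per array, control mice had 17809 to 24698 well above background (median 21049) and 90Sr mice 14389 to 22524 (median 17863). At day 4 each group lay on a slide of its own, so that slide and 90Sr cannot be told apart there. At each later day 1 of the 3 slides held 2 control and 2 90Sr mice. The 90Sr replicates 2 to 5 of day 7 and 3 to 6 of day 30 were scanned on dates without a control. For these arrays scan date and 90Sr cannot be told apart. The scaling of the arrays moved the median change of all genes by more than most single changes. In order of day it stood at -0.01, -0.00, -0.08, -0.10 and 0.12 for arrays centered on their median, 0.47, 0.35, 0.31, 0.38 and 0.31 with the 75th percentile, 0.14, 0.02, -0.42, -0.31 and -0.59 with the median of detected spots, -0.23, -0.26, -0.47, -0.50 and -0.29 with a reference array, and -0.63, -1.88, -1.17, -0.82 and -0.51 with the spike-in probes. At day 7 the spike-in signals stood apart on 4 90Sr arrays (replicates 2 to 5), which shared 1 slide and 1 scan date without a control. Their signals lay at 8.47 to 8.72 on the log2 scale, against 6.58 to 7.05 on the other 8 arrays of that day. Without these 4 arrays the day 7 median of all genes under the spike-in scaling was -0.79 and that of the members described below -1.67, a comparison of 2 90Sr mice with 6 controls chosen after seeing the data and not tested.

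By their median, the translation factors were lower in the blood of 90Sr mice than in that of controls at every day, with a large spread among members (SD of the changes 0.71, 0.63, 0.78, 0.70 and 0.98). At day 4, 24 of the 63 members were called lower, against 17.3% of all genes, and 1 was called higher, against 2.09%. At day 7, 14 members were lower (all genes 12.0%) and 0 higher (2.59%), although 9 were higher at an unadjusted p under 0.05 by the same limma test. At day 9, 17 were lower (all genes 13.7%) and 4 higher (4.41%). At day 25, 25 were lower (all genes 19.8%) and 1 higher (5.63%). At day 30, 22 were lower (all genes 16.1%) and 4 higher (15.5%). In either direction the calls covered 19.4%, 14.6%, 18.1%, 25.4% and 31.6% of all genes in order of day.

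The median change over the 63 members was -0.80, -0.75, -0.55, -0.82 and -0.60 at the 5 days, and it was below 0 under each of the 6 scalings tried. Set against the median of all genes, the members stood at -0.80, -0.75, -0.47, -0.72 and -0.72, a difference that is the same for every scaling by a constant per array. With quantile scaling, which is not of that kind, the differences were -0.62, -0.53, -0.26, -0.52 and -0.70. With normexp background correction they were -0.53, -0.50, -0.38, -0.65 and -0.59. The number of members with a change below 0 was 54, 48, 45, 52 and 42 of 63. The counts of calls depended on the scaling far more than this difference did. With the 75th percentile only 4, 3, 5, 6 and 14 members were called lower, when 5.85%, 3.48%, 4.72%, 5.45% and 12.0% of all genes were. With the spike-in probes it was 40, 56, 41, 45 and 30 members, when 33.7%, 75.2%, 38.9%, 41.3% and 24.5% of all genes were. The changes of the members also went with their level. With arrays centered on their median, the 10 members brightest in the controls had median changes of 0.12, -0.06, 0.34, -0.06 and 0.35. The other 53 had -1.01, -0.83, -0.61, -0.97 and -0.93. The median of all genes was not matched to the members for level, and the part of level in the difference was not tested.

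**Figure D1:**
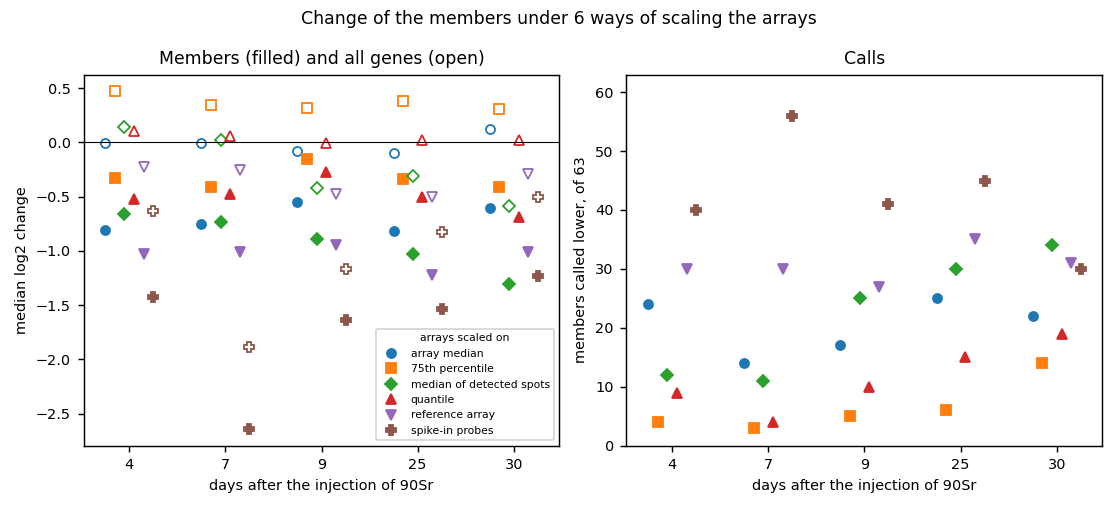
Left, the median log2 change (90Sr minus control) of the 63 members (filled) and of all 18766 genes (open) at days 4 to 30 after injection, with the arrays scaled in 6 ways. Right, the number of the 63 members called lower under each scaling, which ran from 3 to 56 at day 7, while the filled symbols lay below 0 throughout.

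The 10 members called lower at all 5 days were Eif4a1, Eif4a3, Eif4h, Eif4enif1, Eif2b1, Eif2b2, Eif2b4, Eif2ak3, Eif2ak4 and Eif6. Over all genes, 6.28% were lower at all 5 days. No member was called higher at all 5 days, which 0.0320% of all genes were. A further 20 members were called lower at 1 to 4 days and 33 at none. There were 26 members with no call in either direction at any day, with changes between -1.33 and 1.82. With the slide as a fixed block, the groups are compared on the 1 slide per later day that held both. All 10 were then lower in the 90Sr mice at each of days 7, 9, 25 and 30. This direction was not a separate test, since the 10 were chosen on arrays that include these. Of the 10, 5, 1, 0 and 1 were called, when 9.70%, 4.33%, 0.426% and 1.39% of all genes were called lower. Under other scalings the number lower at all 5 days was 1 with the 75th percentile (Eif2ak4), 1 with quantile scaling (Eif4h), 6 with the median of detected spots, 24 with the reference array and 29 with the spike-in probes. The share of all genes lower at all 5 days was not counted under these scalings.

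**Figure D2:**
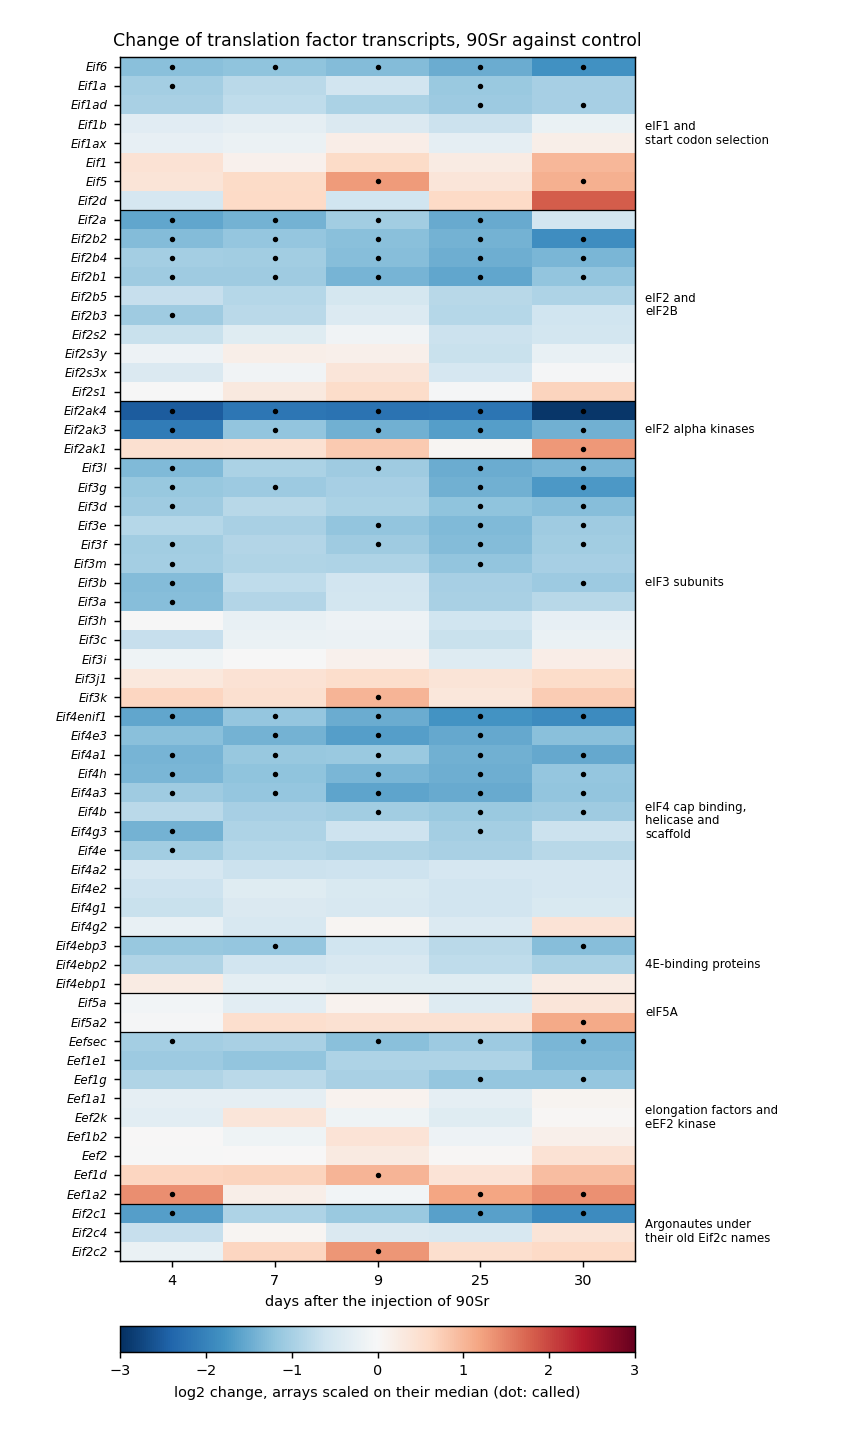
Each row is 1 of the 63 members, grouped by role, and each column a day after injection; color gives the log2 change of 90Sr against control mice with the arrays scaled on their median, and a dot marks a call (p under 0.001 and at least 2-fold). The eIF4, eIF2B and eIF3 rows are mostly blue, while Eef1a1 and Eef2 carry no dot.

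Among the eIF4 proteins, which recruit the mRNA, and their relatives, 6, 5, 6, 7 and 5 of 12 members were called lower and none higher. The medians were -1.06, -0.96, -0.98, -1.06 and -0.95. The 12 include Eif4a3 and Eif4enif1, whose other roles are given below and which were called lower at all 5 days. Over all genes 17.3%, 12.0%, 13.7%, 19.8% and 16.1% were called lower. Eif4a1 encodes the main RNA helicase of the cap complex. Its level at day 4 had a lowest, median and highest value of 4.59, 5.05 and 5.50 in the 4 control mice, and of 3.45, 3.62 and 3.94 in the 4 90Sr mice. At day 30 the values were 4.41, 5.12 and 5.92 for the 6 controls, against 3.19, 3.61 and 4.03 for the 6 90Sr mice. No 90Sr mouse reached the lowest control at any of the 5 days. Eif4a1 fell 2.62-fold at day 4 (log2 change -1.39, SE 0.20, limma adjusted p 5.4e-04) and 2.88-fold at day 30 (-1.52, SE 0.26, adjusted p 2.89e-04), with changes of -1.14, -1.12 and -1.44 at the days between. With the 75th percentile scaling its change was -0.91 at day 4 and -1.34 at day 30.

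Eif4h, a partner that helps the helicase unwind leaders, had control values of 6.09, 6.52 and 6.66 at day 4 (lowest, median and highest), above the 4.82, 5.08 and 5.30 of the 90Sr mice. It fell 2.60-fold at day 4 (log2 change -1.38, SE 0.17, limma adjusted p 2.89e-04) and 2.75-fold at day 25 (-1.46, SE 0.21, adjusted p 1.69e-04), and its groups did not overlap at any day. No single mouse left out removed a call of Eif4h at any day. Eif4a3, a related helicase of the exon junction complex, fell at all days by 1.08 to 1.58 on the log2 scale. Eif4enif1 encodes the protein that carries eIF4E into the nucleus. It fell by 1.56, 1.15, 1.49, 1.80 and 1.89, but was well above background in only 4, 5, 1, 2 and 3 of the 90Sr mice in order of day, against every control.

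Other members of the cap complex had fewer calls. Eif4a2, the close relative of Eif4a1, was not called at any day, with changes of -0.50, -0.64, -0.63, -0.51 and -0.51. Eif4g1, the scaffold that joins the cap to eIF3, was not called either, with changes between -0.67 and -0.44. Eif4g3, a second scaffold, fell at day 4 by 1.41 (90Sr 2.10 to 2.33, control 3.50 to 3.88) and at day 25 by 1.01. Eif4b, which stimulates the helicase, fell at days 9, 25 and 30 by 1.04, 1.11 and 1.05. Its other probes past the filter lay on either side of this one. They changed by -1.35 and 0.35 at day 9, by -1.74 and -0.07 at day 25 and by -1.15 and 0.12 at day 30. Eif4e itself, the cap-binding protein, was called at day 4 only, with a change of -1.05 (90Sr 1.60 to 2.22, control 2.64 to 3.22). A second Eif4e probe that passed the filter was higher in the 90Sr mice, by 0.53, 0.93, 0.37, 0.56 and 0.25, so no direction is given for this gene. Eif4e3 was called lower at days 7, 9 and 25, but was well above background in no 90Sr mouse. The data bound its change only weakly, at least 1.40-fold lower at day 4, where it was not called.

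Of the 3 4E-binding proteins, Eif4ebp3 had the only calls. Eif4ebp1, the main target of mTORC1 in this family, was not called at any day, with changes of 0.24, -0.30, -0.37, -0.35 and 0.25. Eif4ebp3 fell at days 7 and 30 by 1.16 and 1.27, and Eif4ebp2 was not called, with changes from -0.94 to -0.48.

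Of eIF2 and its recycling factor eIF2B, 5, 4, 4, 4 and 3 of 10 members were called lower and none higher, and most of the calls were in eIF2B. The shares of all genes called lower were 17.3%, 12.0%, 13.7%, 19.8% and 16.1%. Eif2b2, which encodes its beta subunit, had levels of 5.15, 5.53 and 5.61 in the day 4 controls (lowest, median and highest) and of 4.01, 4.16 and 4.29 in the 90Sr mice. At day 30 they were 4.96, 5.46 and 6.08 for the controls, against 3.26, 3.43 and 4.25 for the 90Sr mice. The groups were separate at each day, and the fall was 2.46-fold at day 4 and 3.63-fold at day 30 (log2 change -1.86, SE 0.23, limma adjusted p 5.79e-05) without a call in the test between days. Eif2b1 and Eif2b4, the alpha and delta subunits, fell by 1.06 to 1.55 and by 1.03 to 1.47, with groups that overlapped for Eif2b1 at day 30. Eif2b3 was called lower at day 4 only (-1.06, well above background in 1 of 4 90Sr mice), and Eif2b5, the catalytic subunit, was not called, with changes from -0.93 to -0.52.

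The subunits of eIF2 itself were not called. Eif2s1, the alpha subunit that the stress kinases phosphorylate, had changes of -0.02, 0.30, 0.54, -0.04 and 0.66. At day 30 its 90Sr mice lay at 4.79 to 5.48 and its controls at 4.22 to 4.61. Eif2s3x and Eif2s3y, the gamma subunit genes of the X and Y chromosomes, changed by -0.51 to 0.36 and by -0.66 to 0.18. Eif2a, which despite its name is a separate initiator protein, was called lower at days 4 to 25 and was near background in the 90Sr mice, so that it is bounded at least 2.17-fold lower at day 4, 1.40-fold at day 7 and 1.28-fold at day 9.

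The eIF2 kinases went in opposite directions. Eif2ak3 encodes PERK, the kinase of the endoplasmic reticulum. Its level at day 4 was 3.02, 3.28 and 3.65 in the controls (lowest, median and highest) and 0.77, 1.28 and 1.57 in the 90Sr mice. Every 90Sr mouse lay below every control at all 5 days, and the fall was 4.25-fold at day 4 (log2 change -2.09, SE 0.22, limma adjusted p 1.84e-04) and 2.29-fold at day 7. The day 7 call of Eif2ak3 was lost when any of 8 single mice was left out. Eif2ak4 encodes GCN2, the kinase that senses uncharged tRNAs. Its probe fell at all days, by 2.16 to 2.92, but it was well above background in only 2, 2, 0, 2 and 0 of the 90Sr mice, which leaves it at least 2.24-fold lower at day 9 and at least 3.02-fold lower at day 30. A second Eif2ak4 probe that passed the filter changed by -0.36, -0.43, 0.37, 0.33 and -0.70, so the probes disagreed in size and at days 9 and 25 in sign.

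Eif2ak1, the heme-regulated inhibitor, rose at day 30. Its levels there were 3.16, 3.24 and 3.60 in the controls (lowest, median and highest) and 4.00, 4.59 and 5.14 in the 90Sr mice. The groups did not overlap, and the rise was 2.47-fold (log2 change 1.31, SE 0.19, limma adjusted p 1.26e-04), with a change of 0.68 under the spike-in scaling. At days 4, 7, 9 and 25 it was not called, with changes of 0.49, 0.46, 0.80 and 0.06.

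**Figure D3:**
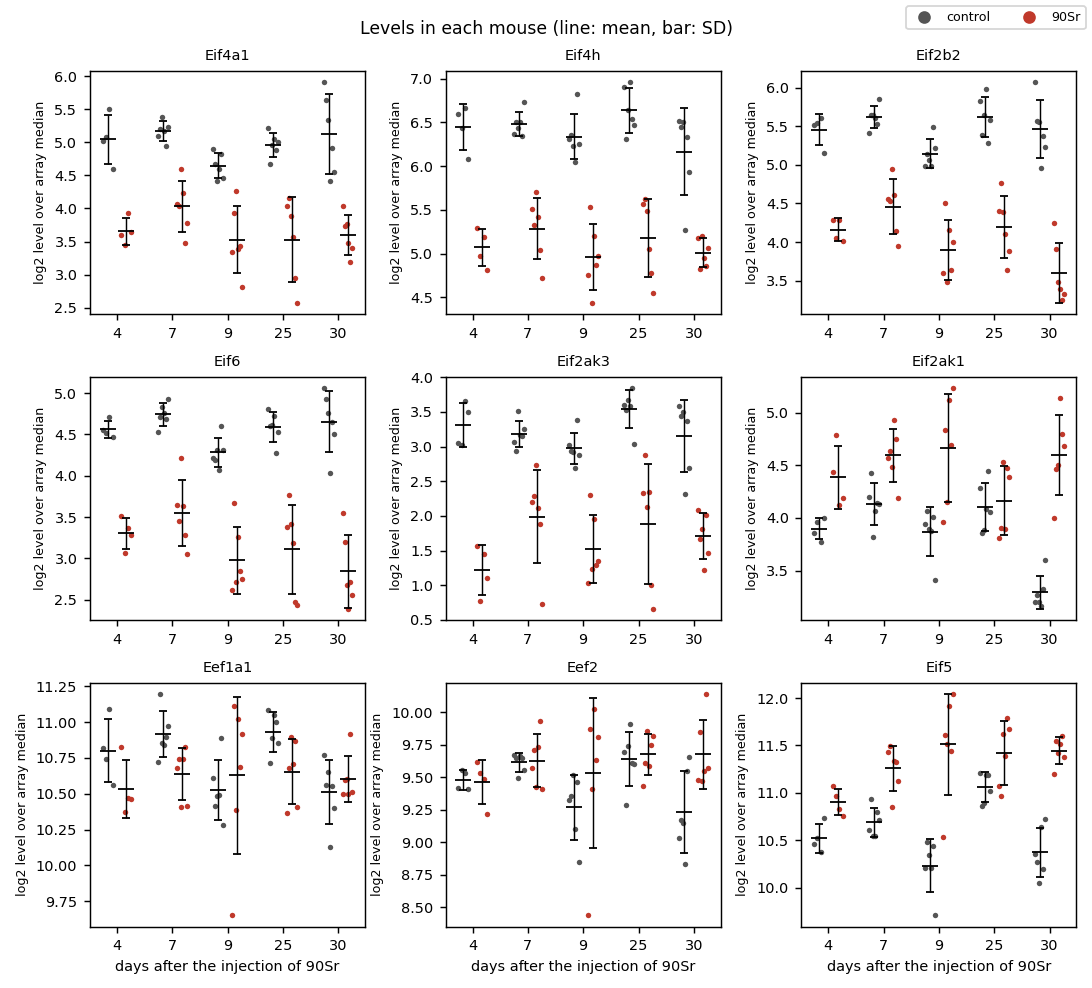
Log2 level over the array median of 9 members in each mouse (gray, control; red, 90Sr) at each day after injection, with the mean as a line and the SD as a bar. Eif4a1, Eif4h, Eif2b2, Eif6 and Eif2ak3 show separate groups at every day, Eif2ak1 at days 4 and 30 with the 90Sr mice above, and Eef1a1 and Eef2 overlap at every day.

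The subunits of eIF3, the scaffold that holds the small ribosomal subunit, were divided. Of the 13 members, 7, 1, 3, 6 and 6 were called lower in order of day, with medians of -1.02, -0.83, -0.57, -0.99 and -0.99. The day 7 count was 7.69% of the subunits, below the 12.0% of all genes called lower at that day. At days 4, 9, 25 and 30 the shares of all genes were 17.3%, 13.7%, 19.8% and 16.1%. Eif3l had control levels of 6.13 to 7.13 at day 4 and 90Sr levels of 5.01 to 5.68, and its groups were separate at every day. It was called at all days but day 7, with changes of -1.33, -0.96, -1.06, -1.48 and -1.38. Eif3g was called at all days but day 9, where its change was -0.99, and fell 3.32-fold at day 30 (log2 change -1.73, SE 0.23, limma adjusted p 8.02e-05). Eif3f was called at 4 days, Eif3d and Eif3e at 3, Eif3b and Eif3m at 2 and Eif3a at 1. Eif3c, Eif3h, Eif3i and Eif3j1 were not called at any day, with changes between -0.68 and 0.56. The lowest of the Eif3c probes past the filter changed by -1.31, -0.86, -1.03, -1.20 and -1.10. Probes of Eif3j1 differed in sign at each day, as at day 25 (-0.95 and 0.38).

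Eif3k alone of the 13 rose. Its 90Sr mice at day 9 had a lowest, median and highest level of 9.55, 10.51 and 10.64 and its controls 9.13, 9.38 and 9.47. The groups were separate, and the rise was 2.03-fold (log2 change 1.02, SE 0.20, limma adjusted p 9.56e-04), but it turned to -0.066 under the spike-in scaling. Its changes at days 4, 7, 25 and 30 were 0.65, 0.48, 0.35 and 0.77 and were not called.

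Among eIF1, eIF1A, eIF5 and other proteins that find the start codon or join the subunits, Eif6 and Eif5 moved in opposite directions. Eif6 encodes the factor that keeps free large subunits from joining. Its levels at day 4 were 4.47, 4.54 and 4.71 in the controls (lowest, median and highest) and 3.07, 3.32 and 3.51 in the 90Sr mice. At day 30 they were 4.03, 4.70 and 5.06 against 2.38, 2.69 and 3.55. The groups were separate at all days, the fall at day 30 was 3.51-fold (log2 change -1.81, SE 0.23, limma adjusted p 7.13e-05), and a second Eif6 probe changed by -1.35 to -0.93. Eif1a fell 2.02-fold at day 4 and 2.15-fold at day 25, and Eif1ad, a related gene, 2.15-fold at day 25 and by just over the fold threshold at day 30.

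Eif5, the factor that releases eIF2 after the start codon is found, rose at days 9 and 30. At day 9 its levels were 9.71, 10.27 and 10.48 in the controls (lowest, median and highest) and 10.53, 11.56 and 12.04 in the 90Sr mice. The groups were separate and the rise was 2.43-fold (log2 change 1.28, SE 0.24, limma adjusted p 7.89e-04). At day 30 it was 2.10-fold (1.07, SE 0.17, adjusted p 1.59e-04), and with the spike-in scaling the changes were 0.19 and 0.45. A second Eif5 probe moved the same way, by 1.33 and 1.37 at those days. Eif1, the guardian of start codon choice, was not called, and missed the fold threshold at day 30 with a 1.99-fold difference (10.05 to 10.55 in the controls, 10.97 to 11.57 in the 90Sr mice). Eif2d had the largest change of any uncalled member, 1.82 at day 30 (p 0.00103 by limma, not adjusted), but the groups overlapped (2.78 to 3.85 and 3.27 to 6.06) and a second Eif2d probe changed by -0.90.

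Of the 9 elongation factors, 1, 0, 1, 2 and 2 were called lower, where 17.3%, 12.0%, 13.7%, 19.8% and 16.1% of all genes were. Eef1a1, the main carrier of tRNAs to the ribosome, was at 10.56, 10.78 and 11.09 in the day 4 controls (lowest, median and highest) and at 10.37, 10.47 and 10.83 in the 90Sr mice. Its groups overlapped at every day, with changes of -0.27, -0.28, 0.10, -0.28 and 0.09. Eef2, which moves the ribosome along, changed by -0.01, 0.01, 0.26, 0.03 and 0.44 and also overlapped at every day. Neither was called at any day, which does not show that the groups were equal.

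Of the remaining elongation genes, Eef1d, a nucleotide exchange subunit of eEF1, was called higher at day 9 (1.02), and this change turned to -0.065 under the spike-in scaling. Eef1g, another eEF1 subunit, was called lower at days 25 and 30, by 1.17 and 1.15, but its probe is placed on chromosome 15 by the array files and the gene on chromosome 19 by RefSeq, so its identity is uncertain. Its other 2 probes past the filter changed by -1.04 and -1.22 at day 25 and by -0.75 and -0.73 at day 30. Eefsec, the factor that inserts selenocysteine, fell at days 4, 9, 25 and 30 by 1.02, 1.25, 1.08 and 1.37. Eef1a2 was called higher at days 4, 25 and 30, but was well above background on 0 of the 56 arrays, and no fold is given. Eif5a, which helps ribosomes through stretches such as runs of proline, was not called at any day, with changes from -0.38 to 0.35. Eif5a2, its relative, rose at day 30 from 3.77, 4.11 and 4.31 in the controls to 4.69, 5.16 and 5.70 in the 90Sr mice, with no overlap. The rise was 2.22-fold (log2 change 1.15, SE 0.20, limma adjusted p 3.2e-04).

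The Argonautes under Eif2c names also differed from each other. Eif2c2 (Ago2, the Argonaute that cuts its target) rose at day 9, from 5.26, 5.68 and 5.88 in the controls to 6.19, 7.08 and 7.34 in the 90Sr mice. The groups were separate and the rise was 2.49-fold (log2 change 1.32, SE 0.21, limma adjusted p 2.15e-04), with a change of 0.23 under the spike-in scaling. Its other 2 probes past the filter changed by 0.39 and 2.55 at that day, and at day 4 they differed in sign (0.46 and -0.54), so the size of the rise is uncertain. Eif2c1 (Ago1) was called lower at days 4, 25 and 30, with changes of -1.66, -1.63 and -1.88, and was well above background in 3 of 4, 2 of 6 and 1 of 6 of the 90Sr mice. Eif2c4 (Ago4) was not called.

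Whether the effect of 90Sr differed between days was tested with an F test of the interaction in a limma fit of all 10 groups. It called 10 of 63 members, against 22.7% of all genes. By adjusted p the first 5 were Eif2d (5.27e-04), Eif2c2 (0.00209), Eif2ak1 (0.00315), Eef1a2 (0.00383) and Eif5 (0.00554). With the slide as a random block 4 members were called. The control mice of the 5 days also differed from each other, in 30 of 63 members at an adjusted p under 0.05 by limma, against 55.9% of all genes, and in 13 members with the slide as a random block. Eif5 spanned 0.83 between its lowest and highest control day and Eif2ak1 0.84. Eif2c2, Eif5a2 and Eif3k spanned 0.77, 0.76 and 0.56. The lowest control day was also a day of the called rise for Eif5, Eif2c2 and Eif3k (day 9) and for Eif2ak1 and Eif5a2 (day 30). For Eef1d, called higher at day 9, the lowest control day was day 30. The part of low controls in these rises was not tested.

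A ratio of 2 transcripts in the same array does not change when the array is rescaled by a constant. For 14 pairs of related members at 5 days, 70 comparisons in all, the within-array log2 ratio was compared between 90Sr and control mice with a two-sided exact permutation test. At day 4 no p can go below 0.0286, and later none below 0.00216. After Benjamini-Hochberg adjustment over the 70, 29 comparisons were under 0.05, 27 of 65 without the pair of Eef1a1 and Eef1a2, and 19 of 50 when the pairs with Eif4e were left out as well. A ratio shows unequal change of its members, and not which of them moved. A change that depends on level is not removed by it, and the pairs were not matched for level. Ratios below shifted toward the brighter member for Eif4a1/Eif4a2 (mean levels 4.33 and 6.39), Eif1/Eif1b (10.82 and 5.01) and Eif4ebp1/Eif4ebp2 (7.63 and 4.52). They shifted toward the dimmer one for Eif5a/Eif5a2 (6.74 and 4.80) and Eif2s1/Eif2ak1 (4.87 and 4.17). Eif1a/Eif1ax passed at 4 days, and at 0 of them with normexp background correction. The probes of a pair shared runs of 5 to 8 bases at most out of 60.

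The 2 helicases of the cap complex did not move together. The log2 ratio of Eif4a1 to Eif4a2 was lower in the 90Sr mice by 0.90, 0.50, 0.48, 0.93 and 1.02, with adjusted p-values from the exact permutation test of 0.0526, 0.0316, 0.194, 0.0138 and 0.0138. At day 30 it lay at -1.92, -1.45 and -1.16 in the controls (lowest, median and highest) and at -3.18, -2.36 and -2.32 in the 90Sr mice. The groups were separate at days 4, 25 and 30, and the direction was the same with the mean of each gene's probes and with normexp background correction.

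The ratio of Eif1 to Eif1b, its close copy, was higher in the 90Sr mice by 0.76, 0.38, 1.02, 0.87 and 1.20 (exact permutation, adjusted p 0.0526, 0.0275, 0.0138, 0.0178 and 0.0178). At day 9 it lay at 4.57 to 5.55 in the controls and at 6.11 to 6.56 in the 90Sr mice. The ratio of Eif4ebp1 to Eif4ebp2 was higher by 1.16 at day 4 and by 1.19 at day 30 (exact permutation, adjusted p 0.0526 and 0.0138). The groups were separate at both days, and day 4 did not pass, with the smallest exact p possible there. At days 7, 9 and 25 this ratio differed by 0.28, 0.11 and 0.40, with groups that overlapped (exact permutation, adjusted p 0.326, 0.383 and 0.182). The ratio of Eif5a to Eif5a2 was lower by 0.81 at day 7 and 0.83 at day 25 (exact permutation, adjusted p 0.0138 for both) and by 0.79 at day 30 (0.0505). That of Eif2s1 to its kinase Eif2ak1 was lower by 0.64 at day 30, with separate groups (exact permutation, adjusted p 0.0138). No day passed for Eef2 against Eef2k or for Eif2s3x against Eif2s3y. The pairs with Eif4e changed sign with the probe or background setting and are not read.

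**Figure D4:**
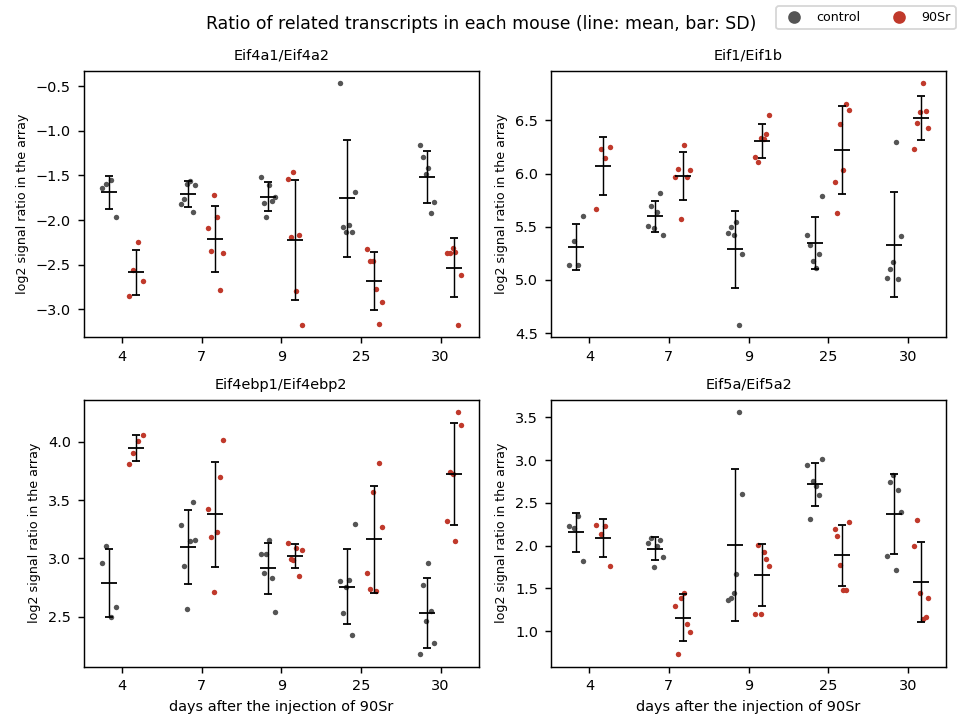
Log2 ratio of the signals of 2 related transcripts within the array of each mouse (gray, control; red, 90Sr) at each day after injection, with the mean as a line and the SD as a bar. The 90Sr mice lie below the controls for Eif4a1/Eif4a2 at days 4, 25 and 30, and above them for Eif4ebp1/Eif4ebp2 at days 4 and 30.

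Other genes of the pathway were read from written lists, and their counts of lower calls stand beside 17.3%, 12.0%, 13.7%, 19.8% and 16.1% of all genes in order of day, and of higher calls beside 2.09%, 2.59%, 4.41%, 5.63% and 15.5%. Of the termination, recycling and poly(A) binding genes, 5, 3, 3, 6 and 4 of 13 were called lower and 0, 0, 1, 0 and 3 higher. Abce1, which splits ribosomes for reuse, fell at every day by 1.24 to 1.41, and Pabpc4, a poly(A) binding protein, rose at days 9 and 30 by 1.11 and 1.01. Of 20 genes of mTORC1 and MNK signaling, 5, 4, 4, 6 and 5 were lower and 0, 1, 1, 1 and 2 higher. The median change of this list was -0.51, -0.35, -0.40, -0.48 and -0.75, but with the 75th percentile scaling it was -0.03, -0.0027, -0.0072, 0.0020 and -0.56. Mlst8 and Rptor, subunits of mTORC1, fell at every day by 1.68 to 2.31 and by 1.31 to 1.84, while Mtor, the kinase of the complex, rose at days 7, 9 and 30 by 1.27, 1.96 and 1.33. Of 7 mitochondrial translation factors, 3, 3, 3, 4 and 3 were lower and none higher, with Gfm1, Mtif3 and Tufm lower at every day.

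Of 14 genes of the integrated stress response, which the eIF2 kinases switch on, 1, 1, 2, 2 and 2 were called lower and 1, 0, 2, 0 and 1 higher. The shares of all genes called lower were 17.3%, 12.0%, 13.7%, 19.8% and 16.1%. With so few genes in the list its counts cannot be told apart from these shares. Atf4, its central transcription factor, was not called, with changes from -0.35 to 0.46. Asns, a target of that factor which makes asparagine, rose at days 4, 9 and 30 by 1.14, 1.67 and 1.11. Nck1, an adaptor that helps dephosphorylate eIF2, fell at days 4, 7, 9 and 30 by 1.94, 1.16, 1.48 and 1.51. Dhps and Dohh, which modify eIF5A, were not called.

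Markers of blood cell types moved in the same arrays. Their counts of lower calls stand beside 17.3%, 12.0%, 13.7%, 19.8% and 16.1% of all genes in order of day. Counts of higher calls stand beside 2.09%, 2.59%, 4.41%, 5.63% and 15.5%. Of 12 B cell markers, 10, 10, 9, 10 and 10 were called lower, with medians of -2.21, -1.75, -2.29, -2.43 and -2.30. Their summed level at day 4 was 10.28 to 10.77 in the controls and 7.97 to 8.72 in the 90Sr mice on the log2 scale, and the groups were separate at each day. Of 9 monocyte markers, 4, 5, 5, 4 and 4 were lower, but their summed levels overlapped between the groups at each day, with medians of 9.97 in the controls and 10.07 in the 90Sr mice at day 7. Of 12 T cell markers 1, 0, 0, 1 and 1 were lower and 1 was higher, at day 30. Their summed levels overlapped between the groups at each day. The medians were 10.35 in the controls and 9.47 in the 90Sr mice at day 9, and 10.19 and 10.47 at day 30. Of 11 neutrophil markers, 2, 0, 0, 1 and 0 were lower, and their summed level was separate at day 4 (12.10 to 12.87 in the controls, 11.33 to 11.61 in the 90Sr mice) and overlapped at the later days. Of 11 platelet markers, none was lower and 1 was higher, at day 30, with a summed level of 14.18 to 14.49 in the day 4 controls and 14.53 to 14.73 in the 90Sr mice and overlap at the later days. Of 13 erythroid and reticulocyte markers, 0, 1, 9, 0 and 8 were called higher, with medians of 0.58, 0.64, 1.15, 0.56 and 1.21. The summed level of these erythroid markers was separate between the groups at each day. It lay at 14.84 to 15.12 in the day 4 controls and at 15.42 to 15.79 in the 90Sr mice. At day 7 it lay at 15.16 to 15.43 and 15.67 to 16.14, and at day 9 at 14.32 to 15.17 and 15.24 to 16.08. At day 25 it lay at 14.705 to 15.10 and 15.12 to 15.93, and at day 30 at 14.56 to 15.54 and 15.68 to 16.22. Days 9 and 30, with most of the higher calls among these markers, are also the days of the called rises of Eif5, Eif2c2, Eif3k, Eef1d, Eif2ak1 and Eif5a2. These are the members called higher whose probes were well above background. The part of the cell types in the changes of the translation factors was not tested.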

How the data were processed

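RNA from the whole blood of 56 mice was measured on one-color Agilent arrays. The authors deposited the processed signal of each spot as an intensity on a linear scale, background-corrected by Feature Extraction (version 10.7 per the labels, 11.5.1.1 per the file headers) and not scaled between arrays. They also deposited a table of filtered, median-normalized log2 values, which was used as an alternative and holds 42 of the members.

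Intensities were log2 transformed and centered on the median of the non-control spots of each array. A probe was dropped when a flag for a non-uniform spot or for a signal at background was set on at least 25% of arrays. A gene was represented by its brightest probe, and its name is that of the array files. Each day was fitted by itself with limma 3.58.1 in R 4.3.3 (lmFit and eBayes), and days were compared with F tests in 1 fit of 10 groups. Ratios were tested in scipy 1.17.1. The fits were tested on simulated data. The number of arrays limits the precision.

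The members and gene lists were chosen with earlier results of these data known. Members were given by role. Values in each group are given for those called in 1 direction at all 5 days, for the 3 largest called changes of each day and direction with separate groups, for up to 6 members whose effect differed between days, and for 11 genes fixed by name. A probe well above background on no array of a group is given only a bound of its fold: the brighter group's mean against, per array, the higher of the probe's own signal and the lowest signal well above background. The alternatives were other scalings, normexp background correction (offset 50), stricter, looser and variation filters, an adjusted p under 0.05 as the only threshold, the authors' values, averaged probes of a gene, 1 fit of all days, the slide, scan date or replicate number as a block, and each array left out in turn.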

Additional observations from a re-analysis of the deposited data

Results flagged for a closer look

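In groups of 4 to 6 mice, 13 of 300 groups checked over 30 named genes held 1 mouse whose distance from the nearest other mouse was a large part of the whole range of the group. Chance alone marks about 1 in 20 such groups. Replicate 1 of the day 9 90Sr group stood low for Eif1 (10.2, next 10.96), Eif2c2 (6.19, next 6.96) and Eif3k (9.55, next 10.41). Replicate 6 of the day 9 controls stood low for Eif2ak1 (3.41, next 3.88) and Eif5 (9.71, next 10.21), and replicate 5 of that group high for Eif5a (7.21, next 6.63). At day 30, replicate 6 of the controls stood high for Eif2ak1 (3.60, next 3.32), replicate 4 low for Eif2s1 (4.22, next 4.47) and replicate 1 low for Eef1a2 (-2.38, next -1.49), and replicate 5 of the 90Sr group high for Eef1a1 (10.9, next 10.6). The others were Eif1 in replicate 3 of the day 7 90Sr group (10.5, next 10.97), Eif2c1 in replicate 5 of the day 7 controls (1.04, next 1.32) and Eif4a2 in replicate 1 of the day 25 controls (5.68, next 6.69).

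The effect of 90Sr differed between days, by limma's F test of the interaction, for Eif2d (adjusted p 5.27e-04), Eif2c2 (0.00209), Eif2ak1 (0.00315), Eef1a2 (0.00383), Eif5 (0.00554), Eif1 (0.0186), Eif5a2 (0.0397), Eif4g3 (0.0434), Eif3k (0.0461) and Eif4ebp1 (0.0465).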

How the results depend on the processing

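The median change of the members stayed below 0 under each alternative at each day it covered (the slide blocks cover days 7 to 30, and the scan date block days 7 and 30). Of the values compared over all members or pairs, 495 stayed close to the value reported and 128 moved. Of the tests of the 63 single members, 7511 stayed on the same side of the threshold with the same direction, 450 lost the call, 357 gained one and 10 reversed. The 10 were all under the spike-in scaling: at day 7, Eef1a2 -1.71, Eef2 -1.87, Eef2k -1.53, Eif1 -1.77, Eif2c4 -1.84, Eif2s1 -1.58, Eif2s3y -1.70 and Eif3j1 -1.45, and at day 9, Eef1d -0.065 and Eif3k -0.066. The cause of the differences between settings was not tested.

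Values are in order of day. Members called lower and higher were 4/3, 3/1, 5/5, 6/2 and 14/7 with the 75th percentile, 12/1, 11/0, 25/0, 30/0 and 34/0 with the median of detected spots, 9/0, 4/0, 10/2, 15/1 and 19/4 with quantile scaling, 30/0, 30/0, 27/0, 35/0 and 31/0 with the reference array, and 40/0, 56/0, 41/0, 45/0 and 30/0 with the spike-in probes. Of all genes, 11.7%, 9.88%, 22.2%, 23.4% and 31.3% were called lower with the median of detected spots. With quantile scaling the share was 8.89%, 4.98%, 7.77%, 7.90% and 15.2%, and with the reference array 23.2%, 20.8%, 24.6%, 30.7% and 25.9%. With the 75th percentile 13.7%, 10.9%, 12.2%, 21.3% and 20.4% of all genes were called higher. With normexp none was higher and 22, 13, 21, 23 and 15 were lower. The slide as a fixed block gave 12/0, 3/1, 0/0 and 2/0 at days 7 to 30, and at an unadjusted p under 0.05 (limma) 36, 27, 22 and 24 members were lower and 5, 4, 1 and 5 higher. Of all genes, 9.70%, 4.33%, 0.426% and 1.39% were called lower with that block. The slide as a random block gave 2 higher at day 9 (3.56% of all genes) and 0 at day 25 (3.67%). The scan date as a block gave 23 lower at day 7 (15.5% of all genes), and 10 lower (5.07%) and 1 higher (1.92%) at day 30. The authors' values gave 1 higher at day 9 and 1 at day 30. An adjusted p under 0.05 with no fold threshold (limma) gave 40/6, 39/8, 30/6, 43/3 and 33/10. A stricter filter gave 0 higher at days 4 and 25, and no filter 0 and 2.

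The median change moved to -0.33, -0.41, -0.15 and -0.33 (days 4 to 25) with the 75th percentile, to -0.52, -0.47, -0.27 and -0.50 (days 4 to 25) with quantile scaling, to -1.02, -1.01, -0.94, -1.22 and -1.01 with the reference array, to -1.42, -2.64, -1.64, -1.54 and -1.23 with the spike-in probes (-1.67 at day 7 without the 4 arrays of the slide of 90Sr mice alone, an alternative chosen after seeing the data), to -0.89, -1.03 and -1.31 (days 9 to 30) with the median of detected spots, to -1.04, -0.94, -1.10 and -1.05 (days 4, 9, 25 and 30) with the variation filter, to -1.06, -1.04, -1.06 and -1.30 (the same days) with the authors' values, and to -0.54 at day 25 with the slide as a fixed block. Effects differing between days were 23 with the spike-in probes, 6 without a filter, 6 with the variation filter and 4 with the slide as a random block. Differences between control days were 14 with the 75th percentile, 19 with quantile scaling, 63 with the spike-in probes, 16 with the variation filter and 13 with the slide as a random block. Pair comparisons under 0.05 were 20 with normexp and 21 with the mean of a gene's probes.

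With each mouse left out in turn, members called lower ranged over 15 to 26, 11 to 18, 14 to 23, 23 to 29 and 18 to 29, members called higher over 0 to 1, 0 to 0, 2 to 4, 0 to 1 and 4 to 7, and the median change over -0.93 to -0.74, -0.76 to -0.64, -0.58 to -0.46, -0.87 to -0.73 and -0.74 to -0.52. Effects differing between days ranged over 6 to 20, control-day differences over 26 to 36 and pair comparisons over 22 to 31. The 15 came without day 4 control replicate 3, the 7 without day 30 90Sr replicate 1, the 20 without day 9 90Sr replicate 1, and the 6 without day 4 90Sr replicate 2 or 4 or day 30 90Sr replicate 5 or 6. The replicate numbers did not pair the mice (correlations of same-numbered mice between -0.28 and 0.32), and the replicate block gave 25/1, 13/0, 15/4, 25/1 and 21/5 members lower and higher. With that block 17.2%, 10.9%, 12.1%, 18.9% and 16.4% of all genes were lower.

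Members near background in the 90Sr mice, such as Eif2ak4, Eif4enif1, Eif2c1 and Eif2a, have changes that depend on the background correction: with normexp those of Eif2ak4 lay between -1.02 and -0.80.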
